A study of Mus musculus with 47 samples.

Results

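The IL-1 and IL-18 system was followed through 7 genes that were selected by symbol: the agonists Il1a, Il1b and Il18, the soluble inhibitors Il1rn and Il18bp, the decoy receptor Il1r2 and the shared receptor chain Il1rap. These are 7 of the 51912 genes in the tables of bone marrow-derived macrophages (BMDMs). The tables of the Raw264.7 line listed between 12771 and 23772 genes, and they held all 7 genes except that Il1r2 was not listed in the p65 KO table. Il1a (ENSMUSG00000027399) lies at chr2:129299609-129310186 and Il1b (ENSMUSG00000027398) at chr2:129364569-129371164, both on the minus strand of mm10 and 54382 bases apart, while Il1rn (ENSMUSG00000026981) lies on the plus strand of the same chromosome at chr2:24336860-24351491. Il18 (ENSMUSG00000039217) lies at chr9:50554700-50581841 on the plus strand, and Il18bp (ENSMUSG00000070427) at chr7:102015074-102018232 on the minus strand. Il1r2 (ENSMUSG00000026073, chr1:40084692-40125230) and Il1rap (ENSMUSG00000022514, chr16:26581509-26730128) are both on the plus strand.

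IL-1α and IL-1β bind the same receptor, IL1R1, which signals only after it recruits the accessory chain IL1RAP, and the signal runs through MyD88 and the IRAK kinases to NF-κB. The IL-1 receptor antagonist encoded by Il1rn occupies IL1R1 without recruiting the accessory chain, and IL1R2 binds IL-1 without passing on a signal. IL-1β and IL-18 are made as precursors that caspase-1 cleaves after inflammasome assembly, and secreted IL-18 is neutralized by the IL-18 binding protein encoded by Il18bp. In macrophages Il1b transcription is a standard readout of Toll-like receptor stimulation, so transcript levels describe the precursor and not the active cytokine.

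RNA-seq was available for 12 of the 47 samples, and the other 35 samples were not analysed here. BMDMs of C57BL/6 background came from Zmynd8 cKO mice, in which a floxed Zmynd8 gene is deleted by Cre driven from the Lyz2 locus in myeloid cells, and from WT littermates that carried the floxed gene without Cre. They were left untreated (M0), given LPS, the bacterial lipopolysaccharide, at 100 ng/ml (M1), or given the type 2 cytokine IL-4 at 20 ng/ml (M2), both for 6 h. Each of these 6 conditions is 1 library, into which 3 biological replicates had been mixed before sequencing. The other 6 libraries are labelled Raw264.7, a mouse macrophage-like line. In the first 3, Zmynd8 was knocked out by CRISPR and the line was left without a rescue (Zmynd8 KO), or was given Zmynd8 (Zmynd8 rescue) or the D/E-A mutant, whose acidic residues in the disordered region were changed to alanine. In the other 3, all labelled as LPS-treated, p65 (gene Rela) was knocked out and the line was left without a rescue, or was given WT p65 or K122R p65, a lysine-to-arginine mutant. The labels of the 3 Zmynd8 lines name no treatment; the study describes the Zmynd8 rescue and D/E-A lines as LPS-treated and gives none for Zmynd8 KO. The WT p65 sample is labelled as the p65 knockout with WT p65, while the header of its column names only WT and LPS. Since each condition is 1 library, nothing below can be set against a spread between replicates.

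The sequences just before 4 of the genes are given because these genes carry most of the differences described below. Each runs from 150 bases before to 10 bases after a RefSeq start (GRCm38.p6, equal to mm10), 5′ to 3′ on the strand of the gene. Capitals mark matches on either strand to any of 5 short motifs. NF-κB was searched as GGG and CC with any 5 bases between them, and the interferon response element as GAAA repeated after any 2 bases. The C/EBP motif was searched with the letters TTGCNNAA. For AP-1 the search used the letters TGANTCA on both strands. The TATA box was searched with its usual letters, TATAAA, and no 2 of these matches overlap in the sequences printed.
Il1a, chr2:129309963-129310122: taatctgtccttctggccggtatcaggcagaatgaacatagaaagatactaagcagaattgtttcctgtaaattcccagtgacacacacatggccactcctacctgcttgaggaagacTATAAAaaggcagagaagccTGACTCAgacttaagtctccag
Il1b, chr2:129371130-129371289: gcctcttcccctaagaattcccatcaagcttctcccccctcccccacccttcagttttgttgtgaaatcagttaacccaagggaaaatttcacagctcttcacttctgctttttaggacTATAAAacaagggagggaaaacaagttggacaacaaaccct
Il1rn, chr2:24336710-24336869: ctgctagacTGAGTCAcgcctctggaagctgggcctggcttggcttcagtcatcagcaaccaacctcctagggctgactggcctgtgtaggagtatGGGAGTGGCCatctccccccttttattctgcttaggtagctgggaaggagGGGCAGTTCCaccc
Il18bp, chr7:102018223-102018382: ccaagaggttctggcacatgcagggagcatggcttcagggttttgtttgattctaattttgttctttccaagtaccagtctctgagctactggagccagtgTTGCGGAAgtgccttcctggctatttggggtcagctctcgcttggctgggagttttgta
All 7 genes matched a RefSeq window of 250 bases before to 50 bases after a start, and Il1rn has 3 such windows. The TATA letters lie close before the start of both Il1a and Il1b, and 13.6% of the 32817 windows in the reference hold them on either strand. The AP-1 letters, found before Il1a and Il1rn, occur in 7.81% of windows, and the C/EBP letters, found before Il18bp, in 10.8%. The NF-κB letters occur in 50.8% of windows, so the matches before Il1rn and Il1rap are common letters at this length. The interferon letters, in 3.43% of windows, were found within these windows for 1 of the 7 genes, Il1rap.

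BMDM libraries held between 22597408 and 28386612 counts, and Raw264.7 libraries between 15127110 and 21042628 reads, so that intervals below cover counting error only. All 8 macrophage markers were detected in every library, but Mertk, one of them, had only between 2 and 4 reads in the p65 lines. Transcripts of ribosomal RNA type took between 8.17% and 17.1% of reads in the Zmynd8 lines and between 0.228% and 0.636% in the p65 lines. Zmynd8 itself had 2284 counts in the WT and 1842 in the Zmynd8 cKO library of M0, 1967 and 2033 in M1, and 3636 and 3944 in M2, and none of the 3 pairs passed the rule given below. Gene totals cannot show loss of the floxed exons alone, and the BMDM libraries are named by their labels. The 3 Zmynd8 lines stood apart from the 3 p65 lines. Raw264.7 derives from a male mouse, but the Zmynd8 lines held between 7109 and 8467 reads of Xist, the RNA of the inactive X chromosome, and at most 2 reads of each of the 4 Y-linked genes checked where these were listed, whereas the p65 lines held at most 3 Xist reads and between 400 and 1810 reads of the Y-linked gene Ddx3y. All 12 neutrophil genes checked were detected in the Zmynd8 lines, with a sum between 4608 and 10652 reads per 1000000 reads (RPM), against between 3 and 5 of the 12 and between 2.22 and 4.16 RPM in the p65 lines. B cell markers were also detected in the Zmynd8 lines, 4 of 4, with sums between 118.6 and 160.5 RPM. In BMDMs the neutrophil sum was between 108.3 and 122.5 counts per 1000000 counts (CPM) in M0, between 18.6 and 22.5 in M1 and between 410.5 and 546.9 in M2. In M0 and M1 most of it came from genes other than S100a8, S100a9 and Ngp. There S100a8 lay between 1.22 and 2.81 CPM, S100a9 between 0.21 and 0.53, and Ngp between 0.09 and 0.31. Zmynd8 had 485 reads with Zmynd8 rescue and 497 with D/E-A. Its deposited value was 116.5 without rescue, against 505.8 with rescue in the same table, and the former was the single value of the table that was not a whole number of reads. Rela had 1601 reads in the WT p65 library, 5850 in the K122R library and 765 in the p65 KO library.

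In untreated BMDMs the inhibitors were more abundant than the cytokines they oppose. On the TPM scale, which is divided by transcript length and so allows genes to be compared, Il1rn stood at 491 in the WT and 359 in the Zmynd8 cKO library, Il18bp at 46.0 and 26.5, and Il18 at 21.6 and 13.0. The receptor chain Il1rap stood at 3.90 and 2.72, and the agonists were lowest among the readily detected genes, with Il1b at 2.04 and 1.51 TPM and Il1a at 1.77 and 2.01. These 2 agonists changed places between the 2 libraries, and with 42 and 32 counts of Il1b and 57 and 67 counts of Il1a their order is within counting error. The decoy Il1r2 had 2 counts in the WT and 3 in the Zmynd8 cKO library, at the limit of what this depth detects.

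**Figure D1:**
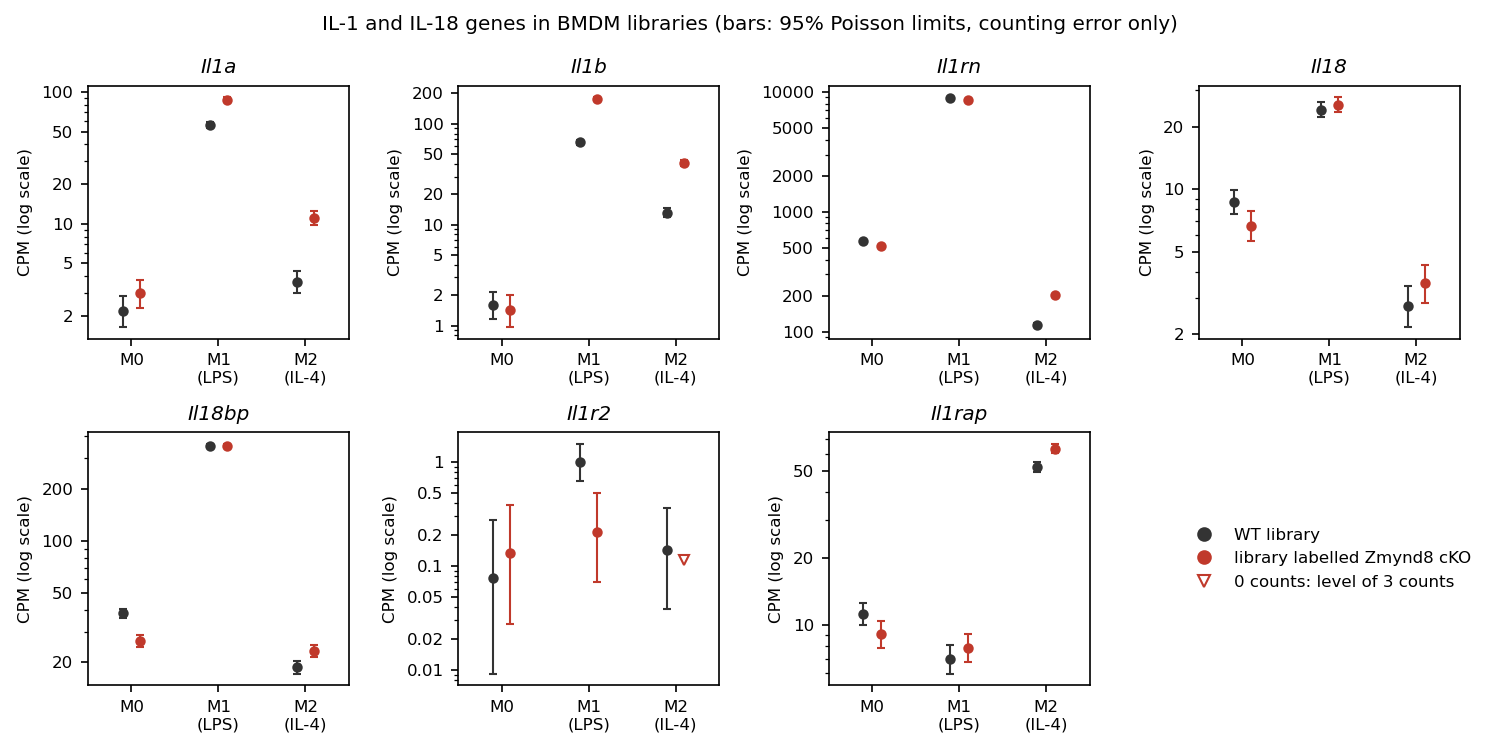
Level of each gene in the 6 BMDM libraries, in CPM on log axes with a separate scale per gene; points are single libraries and bars are 95% Poisson limits, which cover counting error only, and the open triangle marks the level of 3 counts where Il1r2 had 0. The agonists Il1a and Il1b were higher in the Zmynd8 cKO library in M1 and in M2 but not separable in M0, and Il1rap was the 1 gene with its highest levels in M2.

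LPS was followed by large increases of agonists and inhibitors alike. A gene was called when it differed by at least 1.2-fold between 2 libraries, after division by library totals, with an adjusted p under 0.05 by the exact binomial test of its reads; this compares 2 libraries and not 2 conditions. Between WT M1 and WT M0, 6 of the 7 genes were called higher and Il1rap was called lower, against 20.8% called higher and 61.6% called lower among the 12813 genes tested. In the Zmynd8 cKO libraries 5 were called higher and none lower of the 6 genes tested, against 23.9% and 59.1% of 12666 genes. The median log2 ratio over all genes was -0.71 in WT and -0.66 in Zmynd8 cKO. Under median-ratio scaling, which moves all M1 to M0 ratios up by 0.70 in WT and 0.64 in Zmynd8 cKO, 50.4% rather than 25.2% of the WT calls and 50.2% rather than 28.8% of the Zmynd8 cKO calls were higher.

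Il1b had the largest fold of those that could be given after LPS. It went from 42 to 1626 counts in WT, 40.7-fold higher (95% limits 30.0 to 56.8), and from 32 to 4137 counts in Zmynd8 cKO, 125-fold higher (88.2 to 183). The 2 intervals do not overlap, and the difference between them is taken up with the genotype comparison. Il1a, which lies next to Il1b and encodes the IL-1 form that also acts from within or on the surface of the cell, went from 57 to 1392 counts in WT (25.7-fold, 19.7 to 34.1) and from 67 to 2041 counts in Zmynd8 cKO (29.4-fold, 23.0 to 38.1). Its 2 intervals overlap.

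Il1rn, the receptor antagonist, went from 14858 to 222746 counts in WT and from 11729 to 201908 counts in Zmynd8 cKO. These are 15.8-fold (15.5 to 16.0) and 16.6-fold (16.3 to 16.9) increases. Among all genes above 0 TPM, Il1rn moved from rank 302 to rank 17 in WT and from rank 385 to rank 15 in Zmynd8 cKO. It was thus the most abundant transcript of the 7 in every BMDM library, and one of the most abundant of the whole transcriptome after LPS.

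The IL-18 pair also rose together, with the inhibitor rising more. Il18 went from 228 to 601 counts in WT (2.77-fold, 2.38 to 3.25) and from 151 to 597 in Zmynd8 cKO (3.81-fold, 3.18 to 4.59). Il18bp, whose product neutralizes IL-18, went from 1002 to 8829 counts in WT (9.27-fold, 8.69 to 9.91) and from 598 to 8295 in Zmynd8 cKO (13.4-fold, 12.3 to 14.6). Both genes started lower in the Zmynd8 cKO library and reached close to the same level in M1.

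The receptor genes had few counts. Il1rap had 294 counts in M0 and 174 in M1 in WT, and 204 and 184 in Zmynd8 cKO. Against the library totals it was 1.61-fold lower in WT (1.33 to 1.95) and was not called in Zmynd8 cKO (1.15-fold lower, 0.937 to 1.41), but the sign flipped under median-ratio scaling to log2 ratios of 0.02 in WT and 0.44 in Zmynd8 cKO, and under TMM scaling to 0.36 in Zmynd8 cKO with -0.06 in WT. No direction can therefore be given for Il1rap after LPS. Il1r2 went from 2 to 25 counts in WT and was called higher, whereas 3 and 5 counts in Zmynd8 cKO were too few to be tested.

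After IL-4, Il1a, Il1b and Il1rap were called higher and Il1rn and Il18 lower in both genotypes, and Il18bp was called lower in WT alone, with 598 and 608 counts in Zmynd8 cKO. Between WT M2 and WT M0, 3 of the 6 genes tested were called higher and 3 lower, against 39.2% and 22.1% of 13090 genes. In Zmynd8 cKO 3 were called higher and 2 lower, against 42.6% and 25.2% of 12966 genes. Median-ratio scaling moved these ratios by -0.19 in WT and -0.21 in Zmynd8 cKO, and it brought the share of calls that were higher from 64.0% to 47.7% in WT and from 62.8% to 49.4% in Zmynd8 cKO. The comparisons with M0 after LPS and after IL-4 share the M0 libraries and are given side by side.

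Il1rap was the strongest of the IL-4 increases besides Il1b. It went from 294 to 1476 counts in WT (4.64-fold, 4.09 to 5.27) and from 204 to 1651 counts in Zmynd8 cKO (7.0-fold, 6.05 to 8.14), and in both genotypes the M2 library held the highest level of the 3. Il1b went from 42 to 374 counts in WT (8.22-fold, 5.97 to 11.6) and from 32 to 1066 in Zmynd8 cKO (28.8-fold, 20.3 to 42.3). Il1a had a smaller ratio, from 57 to 103 counts in WT (1.67-fold, 1.2 to 2.35) and from 67 to 289 in Zmynd8 cKO (3.73-fold, 2.85 to 4.94). The neutrophil sum was also higher in the M2 libraries than in M0. It was 410.5 against 108.3 CPM in WT and 546.9 against 122.5 in Zmynd8 cKO. Single genes of the list changed far more than the sum. In WT S100a9 went from 0.50 to 121.6 CPM, Ngp from 0.31 to 102.4 and Ltf from 0.19 to 71.4. In Zmynd8 cKO S100a9 went from 0.53 to 184.9 and Ngp from 0.09 to 126.4. Ly6g had 3 counts or fewer in each. The part of these genes in the Il1b and Il1a ratios was not tested. In bulk RNA a changed number of cells of a type and a changed amount of RNA per cell cannot be told apart.

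Il1rn went the other way. It went from 14858 to 3214 counts in WT (5.01-fold lower, 4.82 to 5.20) and from 11729 to 5273 in Zmynd8 cKO (2.57-fold lower, 2.49 to 2.66). Il18 went from 228 to 78 counts in WT (3.17-fold lower, 2.44 to 4.15) and from 151 to 92 in Zmynd8 cKO (1.90-fold lower, 1.45 to 2.49). Il18bp went from 1002 to 532 counts in WT (2.04-fold lower, 1.83 to 2.27), whereas 598 and 608 counts in Zmynd8 cKO were not called (1.14-fold lower, 1.01 to 1.28). The Zmynd8 cKO value of Il18bp depended on the scaling: its log2 ratio was -0.19 with library totals, -0.39 with median-ratio factors and -0.41 with TMM, both of which call it lower, and 0.07 on the deposited TPM (26.45 and 27.71).

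The comparison of Zmynd8 cKO with WT asks whether loss of ZMYND8, a chromatin reader, changes these transcripts in each state. In untreated cells 3 of the 6 genes tested were called lower in the Zmynd8 cKO library and none higher, against 26.5% called lower and 22.2% called higher among 12463 genes. After LPS 2 of 7 were called higher and 1 lower, against 17.6% and 9.15% of 12386 genes. After IL-4 5 of 6 were called higher and none lower, against 14.2% and 10.9% of 13245 genes. The share of all calls that were higher depended on the scaling, and was 65.9% after LPS with library totals but 54.6% with median-ratio factors, and 56.6% after IL-4 but 43.2% with TMM. In M0 it was 45.7%, and 23.8% on the deposited TPM called by fold alone, a setting that changes both the scale and the rule; the TPM scale moves the median log2 ratio by -0.26.

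Among the agonists, Il1b was not separable between genotypes in M0, with 42 and 32 counts (1.13-fold lower in Zmynd8 cKO, 0.698 to 1.85). In M1 it had 1626 counts in WT and 4137 in Zmynd8 cKO, 2.70-fold higher (2.55 to 2.87). In M2 it had 374 and 1066 counts, 3.10-fold higher (2.75 to 3.49). The change of this genotype ratio from M0, taken as a difference of log2 ratios, was 1.61 to M1 (95% limits 0.94 to 2.28) and 1.81 to M2 (1.12 to 2.49), limits that come from the counts alone. Il1b was therefore higher in the Zmynd8 cKO library in both treated states and on TPM as well, where it stood at 79.3 and 227 in M1 and at 17.3 and 52.0 in M2. Beside these values and those of Il1a and Il1rn, the neutrophil sum in WT and Zmynd8 cKO was 108.3 and 122.5 CPM in M0, 18.6 and 22.5 in M1, and 410.5 and 546.9 in M2, where S100a9, one of its genes, had 121.6 and 184.9. In M1 S100a8 went against the sum, at 2.81 and 1.75 CPM, as did S100a9, with 9 and 5 counts. In M0 S100a8 had 1.22 and 1.73 CPM, and Ngp had 8 and 2 counts. The sum of the 8 macrophage genes was lower in Zmynd8 cKO in each state, at 18279 and 14671 CPM in M0, 13288 and 9593 in M1, and 18580 and 14816 in M2. Of these, Lyz2, the Cre locus, had 10950.5 and 7202.3 in M0, 6901.6 and 2892.1 in M1, and 8941.1 and 5244.8 in M2. Adgre1 was lower in M0 (1071.8 and 871.9) and higher in M1 (1181.3 and 1737.0) and M2 (2476.1 and 3013.1). Csf1r and Mertk were lower in Zmynd8 cKO in each state. The part of these markers in the genotype differences was not tested.

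Il1a followed in M2 and less in M1. It had 57 and 67 counts in M0, which was not called (1.36-fold higher, 0.943 to 1.98), 1392 and 2041 counts in M1 (1.56-fold higher, 1.46 to 1.67), and 103 and 289 counts in M2 (3.05-fold higher, 2.43 to 3.86). The log2 genotype ratio of Il1a was larger in M2 than in M1 by 0.97 (0.63 to 1.31), whereas that of Il1b differed between M2 and M1 by 0.20 (0.01 to 0.38).

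Il1rn was close to equal between genotypes in M0 and M1 and higher in Zmynd8 cKO in M2. The counts were 14858 and 11729 in M0 (1.09-fold lower, 1.07 to 1.12), 222746 and 201908 in M1 (1.04-fold lower, 1.03 to 1.04) and 3214 and 5273 in M2 (1.78-fold higher, 1.71 to 1.86). On the deposited TPM the M0 pair, at 491 and 359, passes the 1.2-fold rule as lower, and the M1 pair, at 6821 and 7199, has the opposite sign. The M2 difference holds on both scales.

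Of the IL-18 genes, Il18bp was called in opposite directions in M0 and M2, and Il18 was called in M0 alone. Il18bp had 1002 counts in WT and 598 in Zmynd8 cKO in M0 (1.44-fold lower, 1.30 to 1.60), 8829 and 8295 in M1 (1.00-fold, 0.972 to 1.03), and 532 and 608 in M2 (1.24-fold higher, 1.10 to 1.40). The call in M2 is lost under TMM scaling, at a log2 ratio of 0.25. Il18 had 228 and 151 counts in M0 (1.30-fold lower, 1.06 to 1.61) and was not called in M1 with 601 and 597 counts or in M2 with 78 and 92 counts. The receptor chain Il1rap was called as Il18bp was, with 294 and 204 counts in M0 (1.24-fold lower, 1.04 to 1.49), 174 and 184 in M1 (not called), and 1476 and 1651 in M2 (1.22-fold higher, 1.13 to 1.30). Its M2 call is also lost under TMM, at 0.22, and on the deposited TPM with the fold rule alone, at 0.215. Il1r2 had 25 counts in WT and 5 in Zmynd8 cKO in M1 and was called lower (4.70-fold, 1.77 to 15.7); it had 4 and 0 counts in M2, where 0 allows up to 3 counts.

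**Figure D2:**
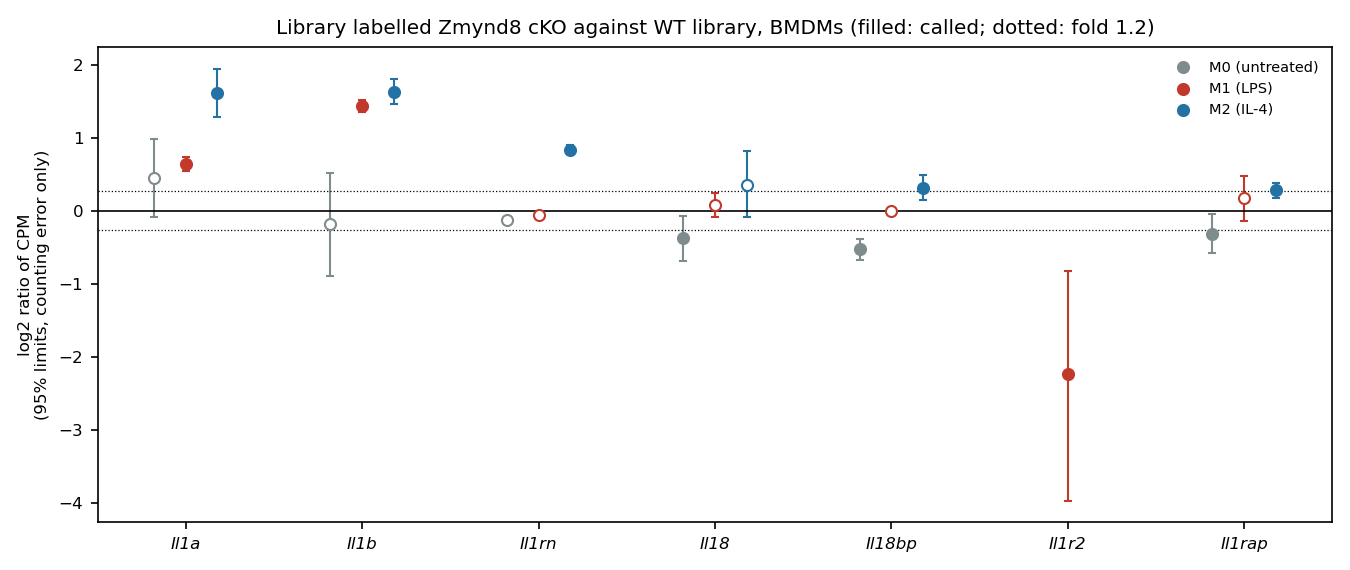
Log2 ratio of the Zmynd8 cKO library to the WT library for each gene in M0, M1 and M2; bars are 95% Clopper-Pearson limits on the reads, filled points are called, open points are not, and dotted lines mark 1.2-fold. Il1b sits at 1.44 in M1 and 1.63 in M2, and Il18bp and Il1rap lie below 0 in M0 and above 0 in M2; Il1r2 is drawn only in M1, where both libraries exceed 3 counts.

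Set against the cytokines, the inhibitors were in excess in every BMDM library, but by amounts that differed widely between states. The ratio of Il1rn to the sum of Il1a and Il1b, on the TPM scale, was 129 in WT and 102 in Zmynd8 cKO in M0, 55.7 and 24.1 in M1, and 5.45 and 3.00 in M2. The ratio was lower in the Zmynd8 cKO library in M1 and M2. The M0 pair rests on agonist counts that were not separable between genotypes, and Il1rn over Il1b alone was 240.7 and 237.4 there. The ratio of Il18bp to Il18 was 2.13 and 2.04 in M0, 7.25 and 7.15 in M1, and 3.45 and 3.09 in M2, so that the genotypes were close and LPS gave the highest values. These are ratios of transcripts in single libraries, and there is no estimate of their error beyond the counts.

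**Figure D3:**
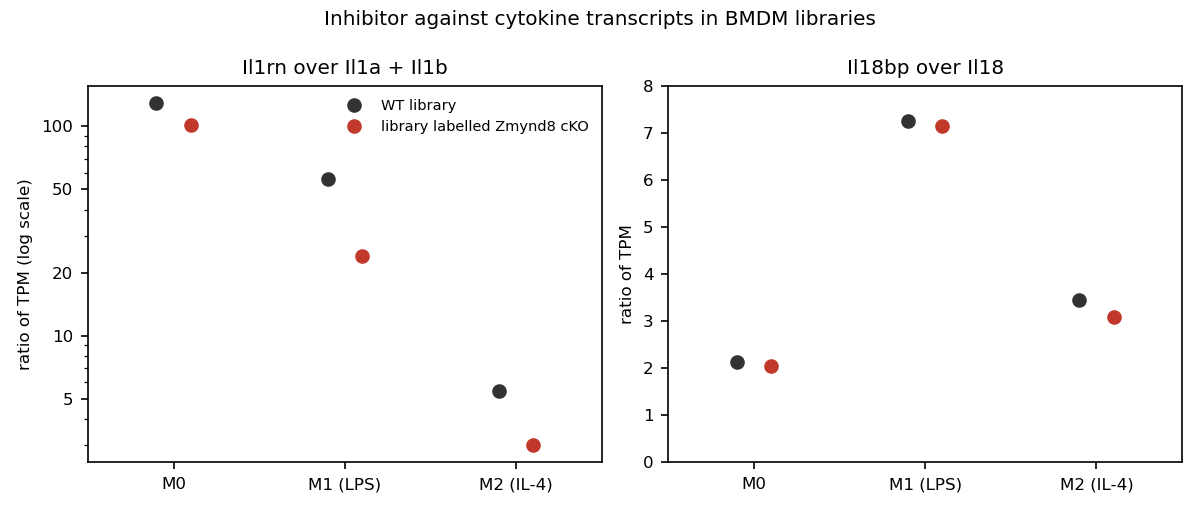
Ratio of inhibitor to cytokine transcripts in the 6 BMDM libraries from TPM; the left panel has a log axis and the right panel a linear one, and each point is 1 library. The Il1rn ratio goes from 129 and 102 in M0 to 5.45 and 3.00 in M2, while the Il18bp ratio is highest in M1 at 7.25 and 7.15.

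Il18bp is an interferon-induced gene, so 18 interferon-response genes are given beside it. In M0 none of the 18 was called higher and 18 lower in Zmynd8 cKO, with a median log2 ratio of -1.78 against -0.02 for all genes, of which 26.5% were called lower, and their sum was 4999 CPM in WT and 1401 in Zmynd8 cKO. In M1 none was called higher and 3 lower, against 9.15% of all genes called lower, with sums of 50203 and 50335 CPM. In M2 17 were called higher and none lower, against 14.2% of all genes called higher, with a median of 1.12 against 0.01 and sums of 1951 and 3424 CPM. Il18bp had 38.2 and 26.5 CPM in M0, 354.5 and 354.0 in M1, and 18.7 and 23.3 in M2. From M0 to M1 all 18 were called higher in both genotypes, against 20.8% and 23.9% of all genes. From M0 to M2 in WT 1 was higher and 14 lower, against 39.2% and 22.1%, and Il18bp was called lower. In Zmynd8 cKO 17 were higher and none lower, against 42.6% and 25.2%, while Il18bp was not called. By fold alone, 13 of the 18 were called higher and 3 lower with D/E-A, against 36.7% and 35.9% of all genes. Il18bp was not called there. With Zmynd8 KO 11 were higher and none lower, against 33.8% and 36.5%. With K122R 11 were higher and 1 lower, against 30.8% and 32.5%, and Il18bp was called higher in both. With p65 KO none was higher and 3 lower, against 26.3% and 25.7%, and Il18bp was called lower. The part of the interferon genes in the Il18bp differences was not tested.

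Of the 38 other genes of the pathway, 31 were tested between genotypes in M0, with 4 called higher and 14 lower and a median log2 ratio of -0.25. In M1 33 were tested, with 11 higher and 2 lower and a median of 0.11, and in M2 31 were tested, with 9 higher and 2 lower and a median of 0.12. The medians of all genes were -0.02, 0.04 and 0.01, and the shares of all genes called higher and lower were 22.2% and 26.5% in M0, 17.6% and 9.15% in M1, and 14.2% and 10.9% in M2. In M0 9 of 18 signalling genes were lower and none higher, 5 of 8 processing genes were lower and 1 higher, and 3 of 5 receptors and relatives were higher and none lower. The named genes in M0 were Tab3 (320 and 148 counts, log2 ratio -0.90), Chuk (1470 and 793, -0.68) and Tab2 (3517 and 1995, -0.60), an IκB kinase subunit and adaptors of the kinase TAK1. In M1 9 of the 18 signalling genes were higher and none lower, 1 of 8 processing genes was higher and 1 lower, and 1 of 7 receptors and relatives was higher and 1 lower. The named genes in M1 were Il33, another IL-1 family cytokine (343 and 548 counts, 0.76), Nlrp3, the inflammasome sensor (1997 and 2892, 0.62), and Nfkbiz, a nuclear IκB protein (958 and 1298, 0.53). In M2 5 of 18 signalling genes were higher and 1 lower, 4 of 8 processing genes were higher and 1 lower, and none of 5 receptors and relatives was called. The named genes in M2 were Nfkbiz (378 and 985, 1.5), Nlrp3 (1311 and 2536, 1.07) and the NF-κB feedback inhibitor Tnfaip3 (3270 and 5114, 0.76). Nlrp3 and Nfkbiz were thus named in both treated states, as Il1b was called in both.

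After LPS 17 of 33 pathway genes were called higher and 12 lower in WT, with a median log2 ratio of 0.31 against -0.71 for all genes, and 20 higher and 7 lower in Zmynd8 cKO, with a median of 0.82 against -0.66. Among all genes 20.8% were higher and 61.6% lower in WT, and 23.9% and 59.1% in Zmynd8 cKO. Il33 had 0 counts in both M0 libraries and 343 and 548 counts in M1. Casp4, the caspase that senses cytosolic LPS, went from 546 to 6992 counts in WT (log2 ratio 3.75) and from 345 to 5361 in Zmynd8 cKO (3.91). Casp1, which cleaves the IL-1β and IL-18 precursors, went from 2239 to 11524 counts in WT (2.44), and Nfkbiz went from 142 to 1298 counts in Zmynd8 cKO (3.14). IL-4 gave 23 calls higher and 3 lower among 31 in WT (median 0.39 against 0.17), and 27 and 3 in Zmynd8 cKO (median 0.72 against 0.19), where 39.2% and 22.1% of all genes in WT and 42.6% and 25.2% in Zmynd8 cKO were called. Nfkb1, which encodes p105 and p50, went from 2277 to 16556 counts in WT (2.75) and from 1850 to 15372 in Zmynd8 cKO (2.85). The IL-36 receptor gene Il1rl2 went from 118 to 479 counts in WT (1.91) and from 75 to 497 in Zmynd8 cKO (2.52), and Nlrp1b from 516 to 1997 counts in WT (1.84).

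The genes whose pattern over the 6 BMDM libraries was most like each member were taken from 6033 genes by Pearson's r of log2(CPM + 1), as a description over 6 points that share treatments and depth. For Il1b they were Tgm2, Malt1 and Ptgs2, with r between 0.994 and 0.996, all highest in the Zmynd8 cKO M1 library. For Il1a they were Il6, Plpp1 and Aoah (0.993 to 0.997). Il1rn was most like Vezt, Fgfbp3 and Hk1 (0.998 to 0.999). Il18 was most like Parp3, Fcgr4 and Mcmbp (0.997 to 1.000), and Il18bp like Lrp4, Pfkfb3 and the interferon-induced chemokine Cxcl9 (0.999 to 1.000). Il1rap was most like Cd72, Gt(ROSA)26Sor and Nadk (0.997 to 1.000), which were highest in the Zmynd8 cKO M2 library.

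In the libraries labelled Raw264.7 the deposited values were normalized within each table, so members were compared only within a table, on the log2 ratio of the value plus 1, and called at 1.2-fold alone. The deposited values are whole reads times 1 factor per library, and the limits given come from those reads. Fold changes refer to the value plus 1, which understates the change of genes with low values. The 2 comparisons of the Zmynd8 lines share the Zmynd8 rescue library, and those of the p65 lines share the WT p65 library.

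The D/E-A comparison asks whether the disordered acidic region of ZMYND8 matters for these transcripts. Of the 7 genes 3 were called higher with D/E-A and 1 lower, against 36.7% and 35.9% of the 12771 genes tested. Il1rap went from 258 to 482 reads (1.95-fold higher, 1.68 to 2.29), Il1a from 2503 to 4078 (1.71-fold higher, 1.62 to 1.79) and Il1rn from 86090 to 109458 (1.33-fold higher, 1.32 to 1.34). Il1r2 went from 411 to 199 reads (1.97-fold lower, 1.66 to 2.35). Il1b, with 24943 and 21677 reads (1.10-fold lower, 1.08 to 1.12), was not called, and neither were Il18 (1935 and 1896 reads) or Il18bp (1593 and 1534). Il1r2 is strongly expressed in neutrophils, and the sum of the 12 neutrophil genes was 10652 RPM with Zmynd8 rescue and 4608 with D/E-A, while that of the 8 macrophage genes was 4978 and 9447. Reads of ribosomal RNA type were 17.1% with Zmynd8 rescue and 8.17% with D/E-A. The part of cell makeup and of these reads in the differences was not tested.

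Without rescue, 2 of the 7 genes were called higher and none lower, against 33.8% and 36.5% of 21302 genes. Il1rap had 258 reads in the Zmynd8 rescue and 497 in the Zmynd8 KO library (1.77-fold higher, 1.52 to 2.07), and Il18bp had 1593 and 2225 (1.28-fold higher, 1.2 to 1.37). Il1b had 24943 and 27055 reads (1.00-fold, 0.985 to 1.02), and Il1r2 411 and 442 (1.01-fold lower, 0.882 to 1.16). Il1a (2503 and 3133 reads, 1.15-fold higher, 1.09 to 1.21), Il1rn (86090 and 107962, 1.15-fold higher, 1.14 to 1.16) and Il18 (1935 and 2308, 1.10-fold higher, 1.03 to 1.17) stayed under the 1.2-fold rule. The neutrophil sum was 7179 and the macrophage sum 6388 RPM in the Zmynd8 KO library, between the values of the other 2 libraries, as were the reads of ribosomal RNA type at 13.8%.

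**Figure D4:**
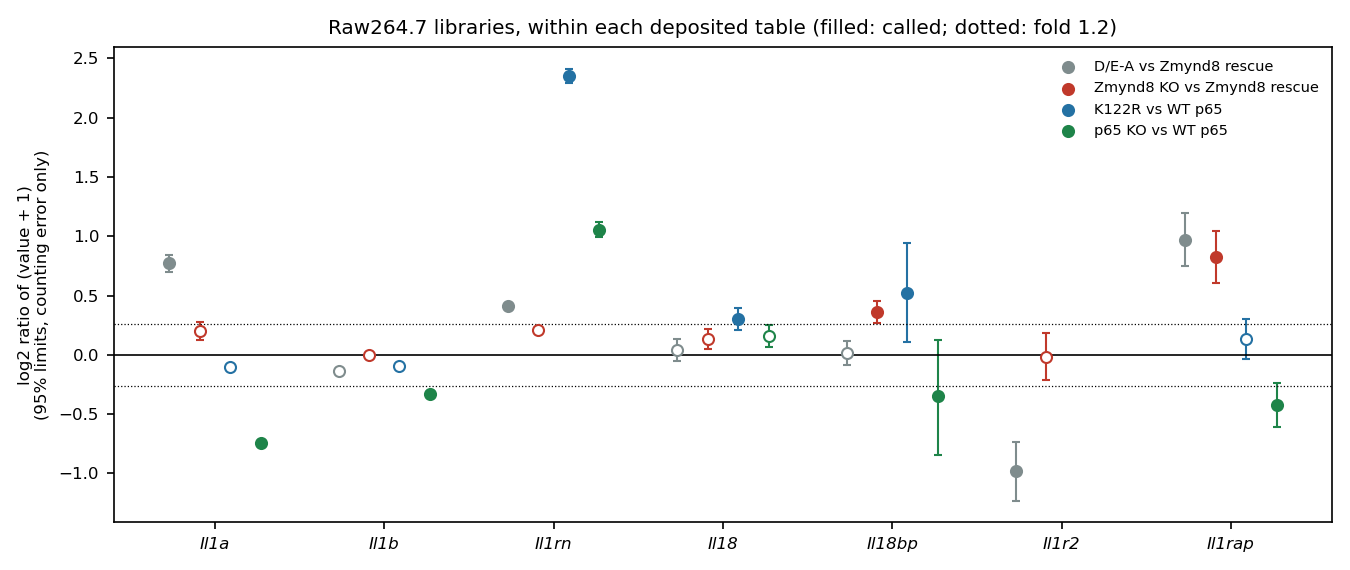
Log2 ratio of the deposited value plus 1 for each gene in the 4 comparisons of libraries labelled Raw264.7; bars are 95% Clopper-Pearson limits on the recovered reads, filled points passed 1.2-fold, open points did not, and dotted lines mark 1.2-fold. The highest point is Il1rn with K122R at 2.35 and the lowest is Il1r2 with D/E-A at -0.98.

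With p65 K122R, whose lysine is an acetylation site of p65, 3 of the 6 genes tested were called higher and none lower, against 30.8% and 32.5% of 19670 genes. Il1rn went from 2741 to 13482 reads, 5.11-fold higher (4.90 to 5.33), and was by far the largest difference. Il18 had 1744 and 2071 reads (1.23-fold higher, 1.16 to 1.32) and Il18bp 86 and 119 (1.43-fold higher, 1.08 to 1.92). The agonists were close, with 58910 and 53234 reads of Il1b (1.06-fold lower, 1.05 to 1.08) and 53852 and 48334 of Il1a (1.07-fold lower, 1.06 to 1.09). Il1rap, with 565 and 598 reads, was not called, and Il1r2 had 0 and 1 reads, where 0 allows up to 3 reads. Scaling by library totals moves all ratios of this table by -0.14, brings the share of calls that were higher from 48.6% to 33.7%, and ends the call of Il18. The K122R library also held 5850 Rela reads against 1601, 1070 Zmynd8 reads against 1826, and 1810 reads of the Y-linked Ddx3y against 400. The part of these differences was not tested.

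In the library labelled p65 KO, which still held 765 Rela reads against 1601 (2.02-fold lower), 1 of the 6 genes was called higher and 4 lower, against 26.3% and 25.7% of 19879 genes. Il1a went from 53852 to 31117 reads (1.67-fold lower, 1.65 to 1.70) and Il1b from 58910 to 45257 (1.26-fold lower, 1.24 to 1.27). Il1rap had 565 and 407 reads (1.34-fold lower, 1.18 to 1.53). Il18bp had 86 and 65 reads (1.27-fold lower), and its limits, 0.916 to 1.79, include no difference. Il1rn went from 2741 to 5508 reads (2.08-fold higher, 1.99 to 2.18), and Il18, with 1744 and 1879, was not called. The antagonist thus had more reads, and both agonists fewer, in the p65 KO library.

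Of the pathway list, 16 of 34 genes were called higher and 10 lower with D/E-A, and 16 of 36 higher and 7 lower with Zmynd8 KO, with median log2 ratios of 0.22 and 0.19 against medians over all genes of 0.02 and -0.03. Among all genes 36.7% were called higher and 35.9% lower with D/E-A, and 33.8% and 36.5% with Zmynd8 KO. In deposited values Tnfaip3 had 9230 and 24403 with D/E-A (log2 ratio 1.40) and 9851 and 19051 with Zmynd8 KO (0.95). With D/E-A, Nlrp1b (157.3 and 61.4, -1.34) and the signalling receptor Il1r1 (27.4 and 61.4, 1.14) were the next. With Zmynd8 KO, they were Sigirr, a receptor that dampens IL-1 family signals (87.6 and 50.8, -0.77), and Chuk (471.3 and 795.0, 0.75). K122R gave 12 calls higher and 2 lower among 35 (median 0.07), against 30.8% and 32.5% of all genes, and the named genes were the IL-36 genes Il36a (3.92 and 71.4, 3.88) and Il36g, listed under their older symbols Il1f6 and Il1f9, and Sigirr (23.5 and 57.1, 1.24). Il36g had values of 1.96 and 31.6, and is given no ratio because the first is 2 reads. The library labelled p65 KO gave 5 and 8 among 34 (median -0.10), against 26.3% and 25.7% of all genes, and the largest were Il1r1 (6.88 and 19.3, 1.37), Sigirr (23.6 and 59.0, 1.29) and Il33 (6555 and 2917, -1.17).

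The balance of agonist and inhibitor also differed between the 2 sets of Raw264.7 lines. In RPM, Il1rn lay between 4680 and 6105 in the Zmynd8 lines and between 175.0 and 809.5 in the p65 lines, and Il18bp between 85.6 and 105.7 and between 4.30 and 7.15. Il1a showed the reverse, between 136.1 and 227.4 in the Zmynd8 lines and between 2057 and 3438 in the p65 lines, and Il1b between 1209 and 1356 and between 2992 and 3761. Il18 was close in all 6 libraries, between 105.2 and 124.4. Per kilobase of RefSeq exon, Il1rn stood at between 2.23 and 3.12 times the sum of Il1a and Il1b in the Zmynd8 lines and at between 0.0212 and 0.116 times in the p65 lines. These levels are set across tables that were normalized separately, and the line, the neutrophil and B cell transcripts and the treatment, which is labelled LPS for the p65 lines and not labelled for the Zmynd8 lines, cannot be told apart as sources of the difference.

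**Figure D5:**
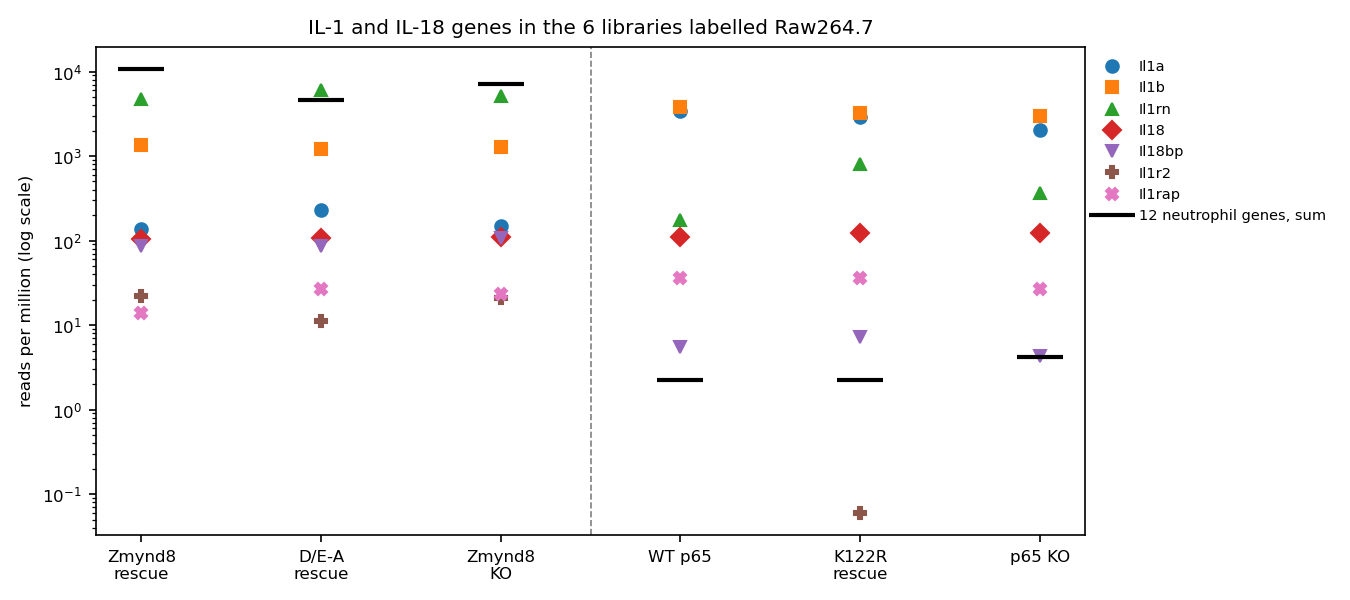
Level in RPM (log axis) of each gene in the 6 libraries labelled Raw264.7, with the Zmynd8 lines left and the p65 lines right of the dashed line; black bars are the sum of 12 neutrophil genes, and genes at 0 or not listed are left out. Il1rn is the highest of the 7 genes on the left, Il1b and Il1a on the right, and the neutrophil sum is between 4608 and 10652 on the left against between 2.22 and 4.16 on the right.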

How the data were processed

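RNA-seq was used from 12 libraries, 1 per condition. For BMDMs TopHat was used by the authors for alignment to mm10 transcripts, and they deposited estimated counts and TPM; the counter is not given in the sources used here. The submitters' processing notes name Bowtie 0.12.2 and CASAVA 1.4. Estimated counts were rounded, and 431 entries of the M0 and M1 tables and 2 of the M2 table had no counts. For Raw264.7 the authors deposited normalized signal values per gene, which were whole reads (within 0.01 of a read) times 1 factor per library, apart from 1 Zmynd8 value. The deposited fold changes and p-values were not used, nor were 15 unlabelled columns of the D/E-A table.

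BMDM ratios were divided by library totals, with no pseudocount, and genes under a mean of 10 counts were left out. Calls needed a 1.2-fold ratio and a Benjamini-Hochberg adjusted p under 0.05 in a two-sided exact binomial test of 2 libraries. Raw264.7 ratios used the value plus 1, leaving out genes whose mean was under 1. Intervals are 95% Clopper-Pearson limits and cover counting error only; genes with 3 or fewer counts in a library were given no fold. Differences between log2 ratios have normal limits from the counts. The named genes were the 7 members, Zmynd8, Rela and, per comparison, up to 3 called pathway genes with the largest log2 ratios among those with a mean of at least 100 counts (Raw264.7: a mean value of at least 10). Likeness was computed over genes with a mean of at least 5 CPM and an SD of at least 0.5 on the log2 scale. The members and lists were chosen with earlier results of these data known. Alternatives were another pseudocount, filter, scaling, fold or call rule; the TPM alternative was chosen after seeing the data. The procedure was tested on simulated data. Python 3.11.15, numpy 2.4.6, scipy 1.17.1, pandas 2.3.3, matplotlib 3.10.9, R 4.3.3 and edgeR 4.0.16 (TMM factors) were used. Positions, promoters and exon lengths are from RefSeq for GRCm38.p6.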

Additional observations from a re-analysis of the deposited data

Results flagged for a closer look

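Il18bp was called in opposite directions between genotypes in untreated and IL-4-treated BMDMs, with a log2 ratio of Zmynd8 cKO to WT of -0.53 in M0 and 0.31 in M2. Il1rap did the same, with -0.31 in M0 and 0.28 in M2. Both M2 calls are lost under TMM scaling, at 0.25 for Il18bp and 0.22 for Il1rap, so that the opposite calls do not hold under that setting. The M2 call of Il1rap is also lost on the deposited TPM with the fold rule alone, at 0.215. Each value rests on 1 library per genotype, so the difference between the states was not tested against any spread between samples; the limits from the counts alone were 0.62 to 1.07 for the Il18bp difference of 0.84 and 0.32 to 0.87 for the Il1rap difference of 0.59.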

How the results depend on the processing

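No paired analysis was possible because each condition is 1 library, and no library could be left out. Of the members' log2 ratios under the alternatives, 479 kept their direction and side of the rule, 28 lost and 7 gained a call, 7 moved and 3 reversed. The alternatives of filter, of fold, and of the fold rule alone on counts leave a log2 ratio unchanged. Under these only the call could change, so they say nothing about direction. All 3 reversals were Il1rap after LPS: 0.016 in WT and 0.44 in Zmynd8 cKO with median-ratio factors, and 0.36 in Zmynd8 cKO with TMM. With a fold of at least 2, the members called became 0 between genotypes in M0, 2 in M2, 0 with D/E-A, 0 with Zmynd8 KO, 1 with K122R and 1 with p65 KO, and all genes called became 959 in M0, 468 in M1, 756 in M2, 6797 and 6968 for M1 against M0 in WT and Zmynd8 cKO, 3141 and 3760 for M2 against M0, 2345 with D/E-A, 5460 with Zmynd8 KO, 3926 with K122R and 3149 with p65 KO. TMM left 3 members called between genotypes in M2. With the deposited TPM and the fold rule alone, 5 members were called in M0, where Il1b and Il1rn also passed as lower, and 6197 genes in M1 and 5549 in M2; the fold rule alone on counts called 5520 genes in M1. With a mean value of at least 10, 9118, 7397 and 5212 genes were called with Zmynd8 KO, K122R and p65 KO, and with the exact binomial test on recovered reads 6529, 5238 and 2780. That test also ended the call of Il18bp with p65 KO. TMM gave 47.0% and 47.2% of calls higher after LPS and 52.3% and 48.3% after IL-4 in WT and Zmynd8 cKO, and TPM with the fold rule alone gave 76.1% after IL-4 in Zmynd8 cKO. At this depth Il1r2 was not measurable in most BMDM libraries or in the p65 lines. The cause of these changes was not tested.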
